A study of Mus musculus with 24 samples.

Results

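The genes described here sense or modify double-stranded and Z-form RNA, or pass the signal on to cell death: Zbp1, Adar, Eif2ak2, Tlr3, Mlkl and Ripk1. They were picked by gene name, and all 6 had a row in a table of 24614 genes and passed the filter on low counts, which kept 11698. Zbp1 and Tlr3 passed it only through the interferon-treated control lines described below. Transcripts were counted in ID8, a line of mouse ovarian cancer cells, and every group carried a double knockout of Trp53 and Brca2 per the labels. The lines were the Ifnar1 knockout clones 1CF10 and 2CD7 made with CRISPR, cells given the CRISPR empty vector (EV) and untransfected cells (WT), both controls without the Ifnar1 knockout. Ifnar1 encodes a chain of the type I interferon receptor. Each line was given 10000 IU/ml of recombinant murine interferon beta (IFN beta) for 3 h or left untreated, for a total of 8 groups. Each group was sampled 3 times as technical replicates handled on a shared date, so p-values reflect technical spread only, and each knockout line is 1 clone.

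Long double-stranded RNA is a product of many viruses and, at lower abundance, of the cell's own repeats, and mammalian cells hold several proteins that bind it. Zbp1 binds RNA in the left-handed Z conformation through its Z-alpha domains and can recruit Ripk3, which phosphorylates Mlkl to start necroptosis. Adar converts adenosine to inosine in double-stranded RNA, and the longer of its protein forms also has a Z-alpha domain. Eif2ak2, known as PKR, is a kinase that halts translation through the initiation factor eIF2 alpha once it is bound to double-stranded RNA. Tlr3 is a receptor for such RNA in endosomes and signals through the adaptor Ticam1, which can bind Ripk1. Several of these genes are known as interferon-stimulated genes. Ripk3 was not analysed here.

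On GRCm38 with GENCODE M21, Zbp1 lies on the minus strand of chromosome 2 from 173206612 to 173218923, and Adar on the plus strand of chromosome 3 from 89715022 to 89753446. Tlr3 (45395665 to 45411080) and Mlkl (111311797 to 111338177) are both on the minus strand of chromosome 8. Ripk1 is on the plus strand of chromosome 13 from 34002363 to 34037147, and Eif2ak2 on the minus strand of chromosome 17 from 78852564 to 78882573. The 5 protein-coding transcripts of Adar have a last exon that starts at 89750929 and ends at 89751406 or 89753446. Counts are given per gene, so the protein forms of Adar were not separated here. The 3′ end of Adar overlaps Chrnb2 on the opposite strand, which had 11 UMIs in all libraries together. The last exon of a Ripk1 transcript overlaps the processed pseudogene Gm17084 on the same strand, which was not analysed here.

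RefSeq promoters on GRCm38.p6, from 250 bases before to 50 bases after an annotated transcription start, were found for 5 of the 6 genes, 8 promoters in all. The 4 printed here run 5′ to 3′ on the gene's strand and set genes with different responses side by side. Capitals mark the letters GAAANNGAA, the core shared by many interferon-stimulated response elements. This motif was searched on both strands and was chosen with the responses known.
Eif2ak2, chr17:78882523-78882822, minus strand: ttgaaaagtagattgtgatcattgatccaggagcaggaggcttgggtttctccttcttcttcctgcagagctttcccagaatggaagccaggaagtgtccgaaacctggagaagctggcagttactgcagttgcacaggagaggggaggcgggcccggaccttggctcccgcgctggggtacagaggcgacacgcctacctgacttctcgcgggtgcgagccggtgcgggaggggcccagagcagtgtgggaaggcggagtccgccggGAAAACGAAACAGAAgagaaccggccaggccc
Adar, the third of its promoters, chr3:89730468-89730767, plus strand: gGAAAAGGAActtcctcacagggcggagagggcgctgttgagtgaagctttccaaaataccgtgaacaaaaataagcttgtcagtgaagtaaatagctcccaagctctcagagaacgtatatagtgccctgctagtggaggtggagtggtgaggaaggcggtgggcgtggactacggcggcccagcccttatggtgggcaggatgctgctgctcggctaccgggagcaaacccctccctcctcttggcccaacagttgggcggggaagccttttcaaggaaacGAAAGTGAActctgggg
Tlr3, chr8:45410331-45410630, minus strand: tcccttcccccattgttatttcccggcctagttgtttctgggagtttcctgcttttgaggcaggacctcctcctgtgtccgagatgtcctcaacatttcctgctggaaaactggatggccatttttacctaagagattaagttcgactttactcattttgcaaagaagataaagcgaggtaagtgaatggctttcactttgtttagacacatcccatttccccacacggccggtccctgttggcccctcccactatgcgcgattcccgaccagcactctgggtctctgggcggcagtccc
Ripk1, the second of its promoters, chr13:34002624-34002923, plus strand: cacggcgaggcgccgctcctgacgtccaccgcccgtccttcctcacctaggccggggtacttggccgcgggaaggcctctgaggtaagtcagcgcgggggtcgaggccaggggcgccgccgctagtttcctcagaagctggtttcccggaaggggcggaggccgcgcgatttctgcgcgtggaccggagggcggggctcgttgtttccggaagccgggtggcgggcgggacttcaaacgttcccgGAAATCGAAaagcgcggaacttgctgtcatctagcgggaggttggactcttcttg

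Positions count the transcription start of each promoter as base 1, which for these promoters of Adar and Ripk1 lies inside the gene. Eif2ak2 held overlapping matches that begin at bases 19 and 25. The first of these reads GAAAACGAAA, with a further A after the motif. The Adar promoter held GAAAAGGAA at -249 and GAAAGTGAA at 34. The Ripk1 promoter held GAAATCGAAA at -5. No match was found in the promoters of Tlr3 and Mlkl, the other 2 of Adar or the other of Ripk1. Among all 32851 mouse promoters of this length in the table, 8.56% held GAAANNGAA and 3.44% held it with a further A at its 3′ end. A second motif, TTCNNNGAA, which resembles the gamma-activated site and reads the same on both strands, was found in the printed promoters of Adar at 23, Eif2ak2 at -178 and Ripk1 at -108 and -11, and in 8.30% of all promoters. A match is a run of letters and was not tested as a binding site.

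The libraries held 1972192 to 3097331 unique molecular identifiers (UMIs), which count molecules, and levels are given as CPM, UMIs scaled to a common library total. Libraries 1 and 2 of treated 1CF10 differed from its library 3 by a chi-square per gene of 4.89 and 3.82, against 1.42 to 2.80 in every other pair of replicates. Krt8 and Krt18, keratins of simple epithelia, and the mesothelial genes Wt1 and Msln were counted in all 24 libraries. So were Krt19 and Upk1b of the same marker list, at medians of 825 and 259 CPM. Of other epithelial markers, Krt7 had 21 UMIs in 14 of 24 libraries and Cdh1 had 12 UMIs in 7 of 24, while Epcam was not analysed. Upk3b, another mesothelial gene, was counted in all 24 at a median of 6.27 CPM. The leukocyte list had 5 of 12 markers in the table and 0 tested, with a summed level of 0.760 to 4.99 CPM in treated and 0.787 to 3.66 CPM in untreated libraries. The endothelial list had 5 of 8 in the table and 1 tested (Esam), at 9.80 to 16.0 CPM in treated and 7.30 to 13.9 CPM in untreated libraries. Ifnar1 was still counted in untreated clones, at 8.90 ± 2.62 CPM in 1CF10 and 7.39 ± 2.71 CPM in 2CD7, against 11.9 ± 0.993 CPM in EV and 11.5 ± 4.50 CPM in WT (SD, n = 3 each). Tags from the 3′ end of an edited transcript can still be counted, and the edit itself was not examined here. These values therefore do not check the knockout.

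The first comparison asked what the controls do with these genes when they meet IFN beta. In EV 5 of 6 rose, the exception being Ripk1, and in WT all 6 rose, where 3.99% of all genes tested were called higher in EV and 5.01% in WT (edgeR quasi-likelihood test, Benjamini-Hochberg adjusted p below 0.05). The Z-RNA sensor Zbp1 and the endosomal receptor Tlr3 were close to 0 before treatment and changed most. Outside the treated controls, libraries held 0 to 5 UMIs of Zbp1 and 0 to 9 of Tlr3. That these genes were tested at all thus depends on the treated controls. Eif2ak2 and Adar were counted before treatment and rose several-fold, and Mlkl rose less. In bulk RNA, fewer responding cells and less RNA per cell cannot be told apart.

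**Figure D1:**
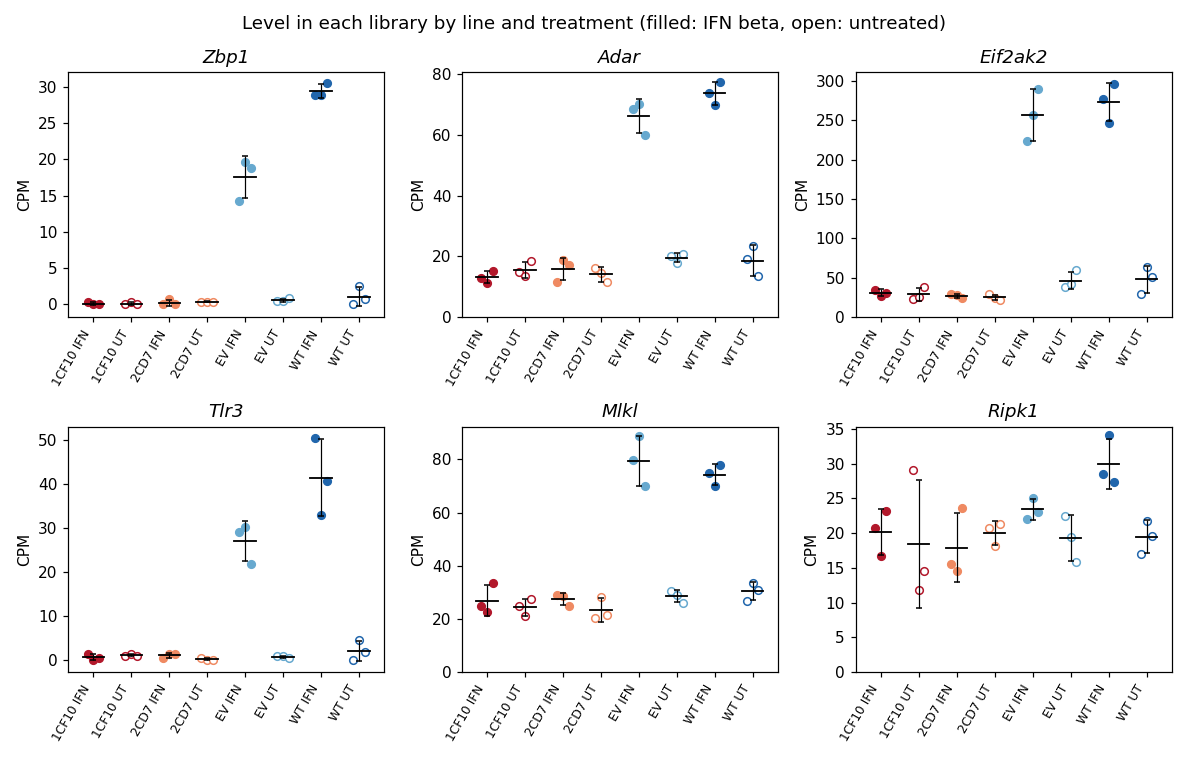
CPM of each gene (vertical axis, linear, a scale of its own per panel) in each of 3 libraries per group; filled points are IFN beta and open points untreated, and bars are the mean ± SD (n = 3). In all panels but Ripk1, the treated EV and WT libraries stand above every other library, and every treated clone library lies below them.

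Zbp1 had 35, 54 and 44 UMIs in the treated EV libraries and 76, 83 and 75 in the treated WT libraries, against 1, 1 and 2 UMIs in untreated EV and 0, 5 and 2 in untreated WT. Every treated control library was thus far above every untreated one. The mean level was 17.6 ± 2.88 CPM in treated and 0.540 ± 0.237 CPM in untreated EV, and 29.4 ± 0.962 CPM in treated and 1.07 ± 1.31 CPM in untreated WT (SD, n = 3 each). The log2 fold change was 4.95 ± 0.44 (SE) in EV and 4.88 ± 0.36 in WT, with edgeR adjusted p = 4.17e-14 and 1.09e-17. The same counts give a ratio of 32.7 in EV (exact 95% interval 12.5 to 122) and 29.9 in WT (14.3 to 75.1), intervals that cover counting error only.

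Tlr3 behaved likewise. It had 71, 83 and 51 UMIs in treated EV and 133, 95 and 100 in treated WT, against 2, 2 and 1 in untreated EV and 0, 9 and 5 in untreated WT. Again the groups did not overlap. The level was 27.0 ± 4.55 CPM in treated and 0.674 ± 0.231 CPM in untreated EV, and 41.4 ± 8.77 CPM in treated and 2.09 ± 2.30 CPM in untreated WT. The log2 fold change was 5.27 ± 0.42 in EV and 4.40 ± 0.32 in WT, with edgeR adjusted p = 2.58e-14 and 6.27e-16. Library 2 of untreated WT held 5 UMIs of Zbp1 and 9 of Tlr3, and without it the WT values were 6.13 for Zbp1 and 5.40 for Tlr3. Library 1 of untreated WT had no UMI of either, and without it they were 4.37 and 3.88.

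Eif2ak2, the kinase PKR, had 224, 256 and 289.6 CPM in the treated EV libraries, against 38.1, 42.2 and 59.4 CPM in untreated EV. In WT it had 277, 247 and 296 CPM in treated libraries, against 29.96, 63.9 and 51.2 CPM in untreated ones. The lowest treated library was several times the highest untreated one in either line. The log2 fold change was 2.50 ± 0.19 in EV and 2.55 ± 0.19 in WT, with edgeR adjusted p = 2.60e-08 and 1.63e-08.

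Adar, the editing enzyme, had 68.6, 70.2 and 59.8 CPM in treated and 20.1, 17.8 and 20.7 CPM in untreated EV libraries. In WT the values were 73.7, 69.9 and 77.4 CPM in treated and 19.2, 23.3 and 13.4 CPM in untreated libraries. The groups were far apart in both lines, and treated EV and treated WT overlapped. On the log2 scale Adar changed by 1.80 ± 0.15 in EV and 2.06 ± 0.15 in WT, with edgeR adjusted p = 4.29e-15 and 1.53e-17.

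Mlkl, the pseudokinase that permeabilises the membrane in necroptosis, had 79.6, 88.8 and 70.1 CPM in treated and 30.5, 28.8 and 26.0 CPM in untreated EV libraries. In WT it had 74.9, 69.9 and 77.8 CPM in treated and 26.8, 33.5 and 30.9 CPM in untreated libraries. All treated control libraries were above all untreated ones. On the log2 scale Mlkl changed by 1.53 ± 0.13 in EV and 1.33 ± 0.13 in WT, with edgeR adjusted p = 1.71e-14 and 2.38e-12.

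Ripk1, a kinase and scaffold that joins death receptor, Tlr3 and Zbp1 signalling, moved least. It had 22.1, 25.1 and 23.1 CPM in treated EV, against 22.5, 19.5 and 15.9 CPM in untreated EV, so these groups overlapped. In WT it had 28.5, 34.1 and 27.3 CPM in treated libraries, against 16.99, 21.8 and 19.6 CPM in untreated ones, with no overlap. The log2 fold change of 0.32 ± 0.21 in EV was not called (95% interval -0.08 to 0.73) and that of 0.67 ± 0.20 in WT was, with edgeR adjusted p = 0.534 and 0.0241. The WT call was lost with DESeq2 (adjusted p = 0.0578) and without treated WT library 2 or untreated WT library 1 or 3 (edgeR adjusted p = 0.149, 0.104 and 0.0746). The test of the difference itself, EV minus WT, gave -0.35 ± 0.29 with edgeR adjusted p = 0.903. For the response of EV minus that of WT, 0 of the 6 genes were called, as were 0.0427% of all genes. For the other genes this difference lay between -0.26 ± 0.23 for Adar and 0.87 ± 0.80 for Tlr3.

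**Figure D2:**
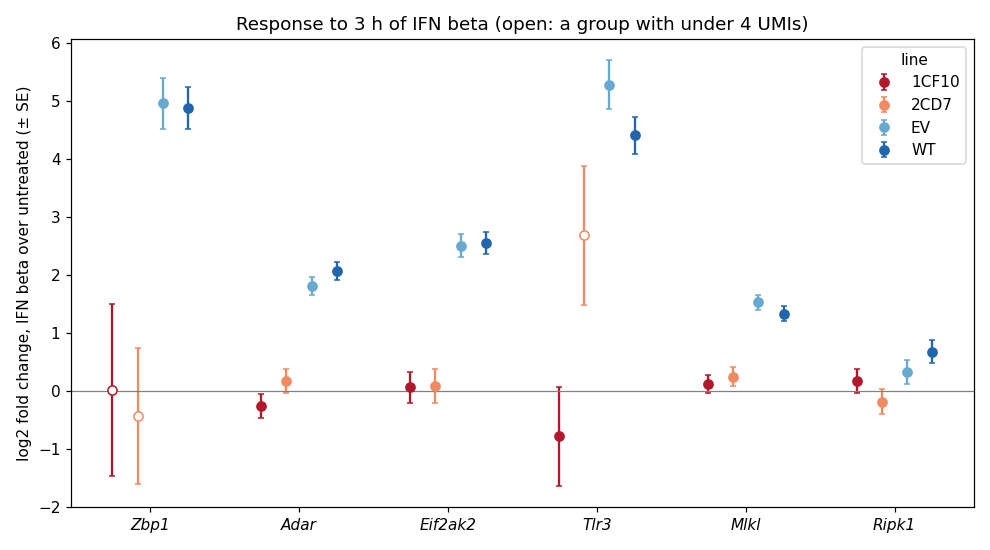
Log2 fold change of IFN beta over untreated (vertical axis, ± SE) for each gene in clones 1CF10 and 2CD7 and controls EV and WT, fitted over all 24 libraries. Open symbols have a group with under 4 UMIs, where the fitted value is no reliable size; the filled clone symbols lie near 0 apart from Tlr3 in 1CF10 (5 against 9 UMIs).

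The second comparison asked whether cells with an Ifnar1 knockout respond. None of the 6 genes was called in 1CF10 or 2CD7, where edgeR called 0% of all genes in either clone, although 485 and 510 genes had an unadjusted p below 0.05. DESeq2 called none of the 6 in either clone, and limma-voom called 1 gene in 2CD7, which was not among them.

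Eif2ak2 had 35.2, 26.6 and 31.2 CPM in treated and 23.4, 25.4 and 38.4 CPM in untreated 1CF10, and 29.4, 27.6 and 24.0 CPM in treated and 29.1, 24.8 and 22.5 CPM in untreated 2CD7. Treated and untreated libraries of a clone were interleaved. The log2 fold change was 0.06 ± 0.26 in 1CF10 (95% interval -0.46 to 0.58) and 0.08 ± 0.29 in 2CD7 (-0.48 to 0.64). For Adar it was -0.26 ± 0.20 in 1CF10 (-0.66 to 0.13) and 0.17 ± 0.20 in 2CD7 (-0.23 to 0.57). These upper bounds are all below the changes of the same genes in either control. For Mlkl the values were 0.12 ± 0.16 (-0.19 to 0.43) and 0.24 ± 0.16 (-0.07 to 0.56), and for Ripk1 0.17 ± 0.21 (-0.24 to 0.58) and -0.19 ± 0.22 (-0.61 to 0.23). The Mlkl bounds are likewise below its changes in the controls, while the 1CF10 bound of Ripk1 is above its EV value.

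Zbp1 was at the edge of detection in the clones, with 1, 0 and 0 UMIs in treated and 0, 1 and 0 in untreated 1CF10, and 0, 2 and 0 in treated and 1, 1 and 1 in untreated 2CD7. Tlr3 had 4, 0 and 1 UMIs in treated and 2, 4 and 3 in untreated 1CF10, and 1, 4 and 3 in treated and 1, 0 and 0 in untreated 2CD7. For Tlr3 in 2CD7, 8 UMIs against 1 give a ratio of 8.54 with an exact 95% interval of 1.14 to 379, while the edgeR test over libraries gave an adjusted p = 0.997. For Zbp1 the ratio was 1.02 (0.0130 to 80.3) in 1CF10 and 0.711 (0.0594 to 6.21) in 2CD7. At this depth a change of a few molecules in these genes was not detectable. No difference in response between the clones was called for any of the 6 genes (edgeR, 0% of all genes called for 2CD7 minus 1CF10), and the interval of that difference for Eif2ak2 ran from -0.74 to 0.78. For Tlr3 it was wide, 3.47 ± 1.48 with an interval of 0.56 to 6.37, and was not called (unadjusted p = 0.0235, edgeR adjusted p = 1.000).

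The mean response of both clones minus that of both controls was called for 4 of the 6 genes, all lower, where 3.68% of all genes were called lower. It was -2.45 ± 0.24 for Eif2ak2, -1.98 ± 0.18 for Adar and -1.25 ± 0.15 for Mlkl, with edgeR adjusted p = 1.15e-06, 2.66e-13 and 1.45e-09. These calls held under every alternative and without any single library. For Zbp1 it was -5.12 ± 1.62 with edgeR adjusted p = 0.0476. The clones had 1 to 3 UMIs of it per group. The call was lost in 17 of 24 fits that left out a library, with edgeR adjusted p between 0.0172 and 0.998 over the 24. The fit without treated 1CF10 library 3 was among the 17 (adjusted p = 0.0645). Of 8 other settings 5 kept the Zbp1 call, DESeq2 and limma-voom among them. For Tlr3 the difference of -3.89 ± 1.59 was not called by edgeR (adjusted p = 0.192), while DESeq2 and limma-voom called it with adjusted p = 0.000573 and 5.68e-05. For Ripk1 it was -0.51 ± 0.21 with edgeR adjusted p = 0.190.

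The levels after treatment can be compared directly, and there all 6 genes were lower in the clones than in the controls, where 12.0% of all genes were lower by the same rule. Zbp1 totalled 1 UMI in treated 1CF10 and 2 in treated 2CD7, against 133 in treated EV and 234 in treated WT. Tlr3 totalled 5 and 8 UMIs in the treated clones, against 205 in treated EV and 328 in treated WT. The log2 difference was -5.33 ± 0.27 for Tlr3, -3.25 ± 0.15 for Eif2ak2, -2.33 ± 0.11 for Adar, -1.56 ± 0.09 for Mlkl and -0.56 ± 0.14 for Ripk1. The largest edgeR adjusted p among the 6 was that of Ripk1, 0.00267, and all 6 calls held without treated 1CF10 library 3. Ifnar1 was also lower in treated clones by this test, at -0.53 ± 0.18 with edgeR adjusted p = 0.0237. That call was lost with DESeq2 (adjusted p = 0.0677), after thinning to the smallest library (0.0850) and without treated 2CD7 library 1, EV library 2 or WT library 1 (edgeR adjusted p = 0.0620, 0.0655 and 0.0557).

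Between the treated controls, a comparison added after seeing the data, Zbp1 and Tlr3 were lower in EV than in WT, at -0.74 ± 0.20 and -0.61 ± 0.19 with edgeR adjusted p = 0.00444 and 0.0176, where 9.45% of all genes were lower. The libraries did not overlap, with 14.3 to 19.6 CPM in treated EV and 28.9 to 30.5 CPM in treated WT for Zbp1, and 21.8 to 30.2 CPM and 33.0 to 50.5 CPM for Tlr3. DESeq2 called neither (adjusted p = 0.0671 and 0.106). Leaving out treated EV library 1 lost Zbp1 (edgeR adjusted p = 0.0504), and leaving out treated EV library 3 or treated WT library 1 lost Tlr3 (0.119 and 0.157). Eif2ak2, Adar, Mlkl and Ripk1 were not called, at -0.09 ± 0.16, -0.15 ± 0.12, 0.10 ± 0.11 and -0.36 ± 0.19. Untreated EV and WT differed in 0 of the 6 genes, where 14.1% of all genes were called in either direction.

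The third comparison was between untreated lines. Eif2ak2 was lower in the clones than in the controls without any added interferon, at -0.80 ± 0.18 with edgeR adjusted p = 0.00964, and was the 1 gene of 6 called, where 4.80% of all genes were lower. The untreated clones had 23.4, 25.4 and 38.4 CPM in 1CF10 and 29.1, 24.8 and 22.5 CPM in 2CD7. The untreated controls had 38.1, 42.2 and 59.4 CPM in EV and 29.96, 63.9 and 51.2 CPM in WT. The groups overlapped through 1CF10 library 3 and WT library 1, and the call held without any single library (edgeR adjusted p 0.000134 to 0.0341) but not in a fit of the untreated groups alone (0.0565).

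Against single controls, the untreated Eif2ak2 difference was called for 2CD7 minus EV, at -0.87 ± 0.26 with edgeR adjusted p = 0.0445, the 1 gene of 6 called there. It was -0.68 ± 0.25 for 1CF10 minus EV, -0.73 ± 0.25 for 1CF10 minus WT and -0.92 ± 0.26 for 2CD7 minus WT, with edgeR adjusted p = 0.101, 0.05002 and 0.0616, none called, the second of these just above the threshold. The clones thus lay below the controls by similar amounts in all 4 pairs, near the threshold. Under 8 other settings of the processing, the Eif2ak2 difference passed in 3 for 1CF10 minus EV and in 5 for each pair with WT. For 2CD7 minus EV it passed in all 8. The share of all genes lower was 6.76% for 1CF10 minus EV, 4.86% for 2CD7 minus EV, 11.0% for 1CF10 minus WT and 2.06% for 2CD7 minus WT. Leaving out any of 2CD7 libraries 1, 2 and 3 or EV library 2 or 3 lost the call of 2CD7 minus EV (edgeR adjusted p 0.0623 to 0.195), and without WT library 1, the lowest of its group, both pairs with WT passed (0.00154 and 0.00215).

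**Figure D3:**
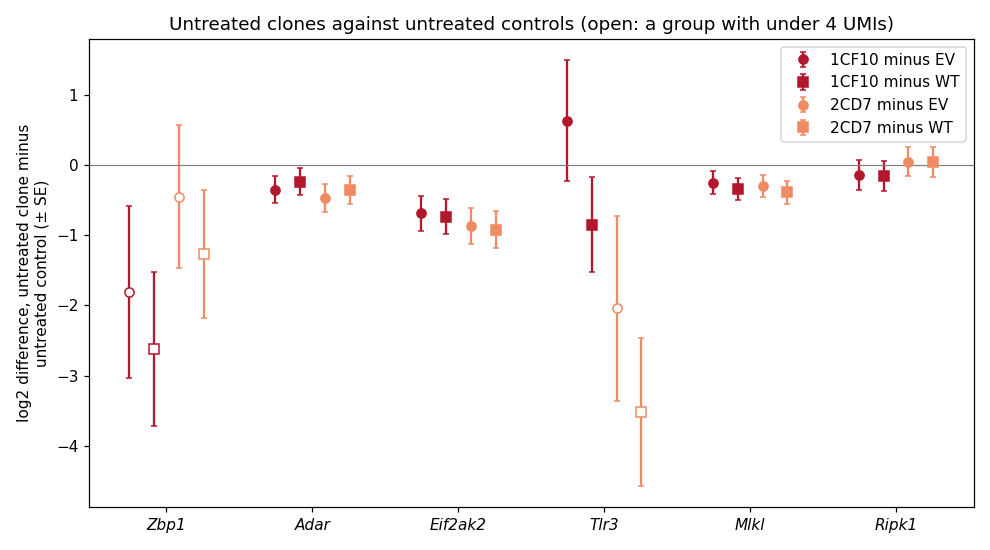
Log2 difference of each untreated clone minus each untreated control (vertical axis, ± SE) by gene. Open symbols have a group with under 4 UMIs; for Eif2ak2 the 4 values lie between -0.92 and -0.68, and for Ripk1 they scatter around 0.

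Adar and Mlkl were also measured lower in untreated clones, at -0.35 ± 0.14 and -0.32 ± 0.11, but did not pass (edgeR adjusted p = 0.117 and 0.0727). Each passed when 1 library was left out, Adar without WT library 3 (edgeR adjusted p = 0.0403) and Mlkl without 2CD7 library 2 (0.0355). Ripk1 gave -0.05 ± 0.15. Ifnar1 gave -0.53 ± 0.19 and was not called (edgeR adjusted p = 0.0713), but passed without 2CD7 library 3 (0.0492). Zbp1 totalled 1 UMI in 1CF10 and 3 in 2CD7, against 4 in EV and 7 in WT, and Tlr3 totalled 9 and 1 UMIs in the clones, against 5 in EV and 14 in WT. Neither was called over both clones and both controls (edgeR adjusted p = 0.249 and 0.273). Tlr3 was the 1 gene of 6 called lower in 2CD7 than in WT (edgeR adjusted p = 0.0483), from a ratio of 0.0649 with an exact 95% interval of 0.00154 to 0.427. That call was lost without any 2CD7 library or without WT library 2 or 3 (edgeR adjusted p 0.0863 to 0.356) with limma-voom (0.233) and after thinning (0.0663).

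Ordered by mean level, treated EV and treated WT led for every gene, with EV above WT only for Mlkl. The ranges of treated EV and treated WT did not overlap for Zbp1, Tlr3 and Ripk1 and overlapped for Adar, Eif2ak2 and Mlkl. For Ripk1 the difference between treated EV and treated WT was nonetheless not called (edgeR adjusted p = 0.188). The step from the lower treated control to the next group was clear of overlap for all genes but Ripk1. How often groups part in this way among all genes tested was not computed, so a lack of overlap only describes these genes. Lower in the order, Eif2ak2 had neighbours without overlap, untreated EV at 46.6 ± 11.3 CPM and treated 1CF10 at 31.0 ± 4.27 CPM. The CPM of untreated EV and untreated 2CD7 did not overlap for Zbp1 either. Untreated EV libraries 1 and 2 and each untreated 2CD7 library held 1 UMI, so library totals alone parted these. The Eif2ak2 step did not part all groups above it from all below. Untreated WT library 1 (29.96 CPM) lay below treated 1CF10 library 1 (35.2 CPM). Untreated 1CF10 library 3 (38.4 CPM) lay above untreated EV library 1 (38.1 CPM). For Adar and Mlkl every neighbour below the treated controls overlapped.

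By Pearson correlation of log2(CPM + 1) over the 24 libraries, the gene most like Zbp1 was Irgm1 (r = 0.989), an interferon-inducible GTPase, followed by Ifi47 and Lgals9 (0.987 each). Eif2ak2 was most like Ifi204 (0.987), Dtx3l (0.986) and Ifi203 (0.985), and Adar most like Gbp2 (0.981), Irgm1 (0.980) and Ifit1 (0.976). Tlr3 was most like Tgtp2 (0.982), Tor3a (0.975) and Gbp2 (0.973), and Mlkl most like Dtx3l (0.979), Parp14 (0.974) and Ifi211 (0.972). Among Zbp1, Adar, Eif2ak2, Tlr3 and Mlkl themselves r was 0.946 to 0.974. Ripk1 correlated with them at 0.568 to 0.606, and was most like Jdp2 (0.765), Rab3ip (0.740) and Tnip3 (0.738). The points share treatment, line and sequencing depth, so these values only describe the pattern.

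Other genes of the same pathways were followed in lists. Of 26 tested genes for sensing or binding double-stranded RNA, 14 rose in EV and 14 in WT, where 3.99% and 5.01% of all genes were higher. The median log2 fold change was 1.44 in EV and 1.72 in WT, against -0.01 and -0.02 over all genes. Ddx60, a helicase, rose by 4.38 ± 0.31 in EV and 5.12 ± 0.39 in WT, and Dhx58, the RIG-I-like protein LGP2, rose by 2.88 ± 0.44 and 4.13 ± 0.44. Oasl1 rose by 3.94 ± 0.24 in EV and 4.49 ± 0.25 in WT, and Oas1b, of the Oas gene family, by 2.95 ± 0.60 and 4.50 ± 0.77. Oas1b, Oas1a and Oas1g are close copies whose tags may be shared, so their separate values are uncertain. Oas2 had 45 UMIs in treated and 2 in untreated WT, a ratio of 20.1 (exact 95% interval 5.25 to 171), and rose by 3.05 ± 0.38 in EV. In the clones 0 of the 26 were called.

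**Figure D4:**
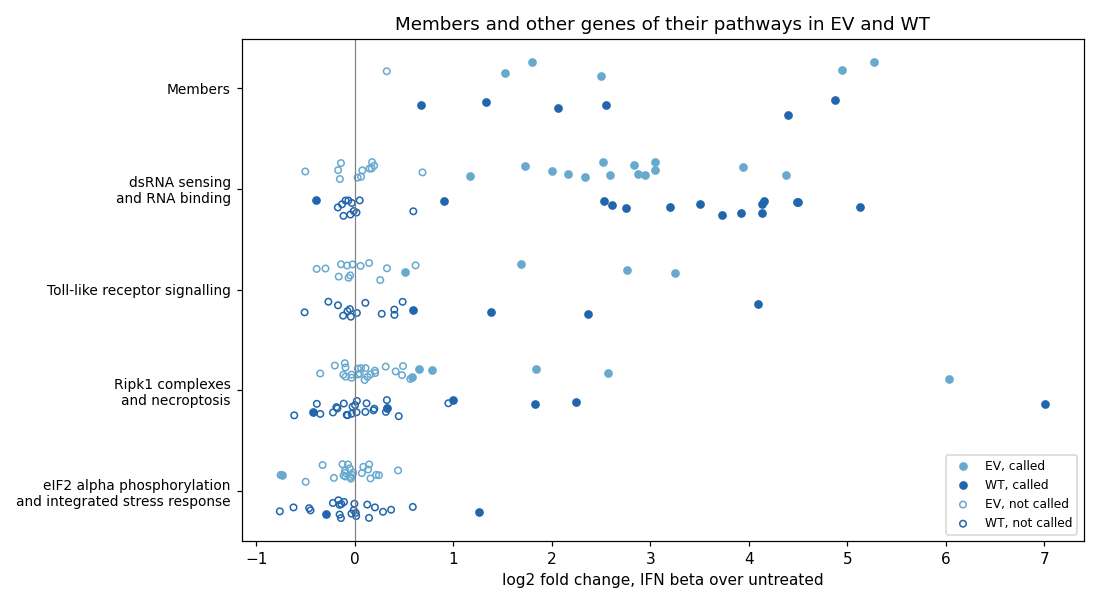
Log2 fold change of IFN beta over untreated (horizontal axis) in EV (upper row of each band) and WT (lower row), a point per tested gene; filled points passed the edgeR test at an adjusted p below 0.05. The list of double-stranded RNA sensors spreads to the right, while most genes of the other lists stay near 0; the pair of points beyond 6 in the Ripk1 band is Tnfsf10, with 0 UMIs in untreated controls and so no reliable size.

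In a list of genes of Tlr3 and other Toll-like receptor signalling, 4 of 17 tested genes rose in EV and 4 in WT, where 3.99% and 5.01% of all genes were higher, and the medians were 0.06 and 0.11. Of the 4, Tlr2 and Myd88 do not belong to Tlr3 signalling. Irf7, a transcription factor of interferon genes, rose by 3.25 ± 0.28 in EV and 4.09 ± 0.29 in WT, and Tlr2, a receptor of bacterial lipopeptides, by 2.77 ± 0.49 and 2.36 ± 0.41. Myd88, the adaptor of most Toll-like receptors but not of Tlr3, rose by 1.69 ± 0.17 and 1.38 ± 0.15, and Azi2, an adaptor of the kinase Tbk1, by 0.51 ± 0.15 and 0.59 ± 0.14. Ticam1, through which Tlr3 signals, was called in neither control, at 0.62 ± 0.37 in EV and -0.51 ± 0.30 in WT. Untreated, Ticam1 was higher in 1CF10 than in EV by 1.12 ± 0.34 (edgeR adjusted p = 0.0201), and its difference between EV and WT was -1.28 ± 0.34 (edgeR adjusted p = 0.00539), lower in EV.

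Of 29 tested genes of Ripk1 complexes and necroptosis, 6 rose and 0 fell in EV, and 5 rose and 1 fell in WT, with medians of 0.13 and 0.02. Over all genes 3.99% were higher and 1.10% lower in EV, and 5.01% higher and 1.84% lower in WT. Tnfsf10, the death ligand TRAIL, had 23 UMIs in treated EV and 48 in treated WT against 0 in either untreated control, so it was at least 7.54-fold higher in EV and 14.3-fold higher in WT with 3 UMIs per group taken as the floor. Fas, a death receptor, rose by 2.57 ± 0.55 in EV and 2.24 ± 0.62 in WT, and Rnf31, a subunit of the linear ubiquitin ligase that modifies Ripk1 complexes, by 1.84 ± 0.27 and 1.83 ± 0.25. Tnfrsf1a, the tumour necrosis factor receptor that recruits Ripk1, rose by 0.79 ± 0.14 in EV and 0.99 ± 0.13 in WT. Casp8, the protease that cleaves Ripk1, was not called, at 0.11 ± 0.18 in EV and -0.22 ± 0.18 in WT.

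Of 24 tested genes around eIF2 alpha and the integrated stress response, which Eif2ak2 can trigger, 0 rose and 1 fell in EV and 1 rose and 1 fell in WT, with medians of -0.05 and -0.07. A count of 1 in 24 is 4.17%, where 5.01% of all genes were higher in WT and 1.10% and 1.84% lower in EV and WT, and a single gene each way is not a result about the list. The calls were Ddit3, lower in EV (-0.74 ± 0.22), Atf3, higher in WT (1.26 ± 0.27), and Asns, lower in WT (-0.30 ± 0.08). The other eIF2 alpha kinases Eif2ak1, Eif2ak3 and Eif2ak4 were called in neither control. None of the 17, 29 and 24 genes of these lists was called in either clone.

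In untreated cells, 8 of the 26 genes for double-stranded RNA were lower in clones than in controls, 1 of the 17, 0 of the 29 and 1 of the 24, where 4.80% of all genes were lower. The last 3 counts are close to or below that share. Of the genes called, 3 were lower in each clone against each control. Ifih1, the sensor MDA5, had 9.77 ± 3.19 CPM in 1CF10 and 6.03 ± 1.59 CPM in 2CD7, against 20.4 ± 4.72 CPM in EV and 17.4 ± 6.56 CPM in WT (SD, n = 3 each). Ddx58, the sensor RIG-I, had 15.2 ± 2.72 and 13.1 ± 3.38 CPM in the clones, against 27.1 ± 7.25 and 22.7 ± 4.58 CPM. Irf7 had 2.03 ± 0.784 and 0.909 ± 0.614 CPM, against 14.3 ± 6.998 and 11.3 ± 8.83 CPM. The log2 difference over both clones and both controls was -1.31 ± 0.20 for Ifih1, -0.83 ± 0.13 for Ddx58 and -3.15 ± 0.49 for Irf7, with edgeR adjusted p = 5.21e-05, 7.02e-06 and 0.000430. Of the 6 RNA-sensing and death genes, Eif2ak2 alone was called lower in that same comparison.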

How the data were processed

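Total RNA of 24 ID8 libraries was sequenced at the 3′ end. Per the labels' protocols, 50000 cells per well were plated 24 h before treatment, and 20 ng of RNA went into libraries whose poly(A) primer carried a UMI of 10 bp. The deposited values are UMI counts per gene, made by the authors without normalization. The submitters' processing notes name cutadapt 3.0, edgeR 3.36.0, limma 3.50.0, R 3.6.2 and R 4.1.2 and the builds GRCm38 and mm10; the aligner and strand setting are not given in the sources used here.

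The counts of all 24 libraries were fitted together in 8 group means with edgeR 4.0.16 in R 4.3.3 (filterByExpr min.count 10, min.total.count 15, TMM scaling, robust quasi-likelihood F test). The filter left 11698 genes, over which p-values were adjusted by Benjamini-Hochberg, and genes were called below 0.05. The SE is the log2 value divided by the square root of F. CPM are per library total of UMIs. Ratios of few UMIs have exact binomial intervals that cover counting error only. Scripts were tested on simulated data.

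The genes, pathway lists and tests were chosen with earlier results of these data known. The text names the 6 genes, Ifnar1, Casp8 and Ticam1, up to 5 genes per list with the largest mean change among those called in both controls, up to 3 called in both untreated clones against both controls, and the 3 genes most correlated with each of the 6 (mean of at least 10 CPM, predicted genes left out). Ddit3, Atf3, Asns and the other eIF2 alpha kinases were named after their values were seen. The result of 1 list gene is not reported here. Treated EV minus WT and the promoter motifs were added after seeing the data. Replicate numbers were not used to pair libraries in the main fit. Deviations of same-numbered libraries of different groups correlated at 0.00928 on average, and those of other numbers at -0.00464. Alternatives were RLE factors, DESeq2 1.42.0, limma-voom (limma 3.58.1), no filter, a minimum count of 30, a replicate block, random thinning to 1972192 UMIs, refitting just the compared groups and leaving out each library.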

Additional observations from a re-analysis of the deposited data

Results flagged for a closer look

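The response to IFN beta differed between clones and controls, by a test of the difference itself over all 24 libraries, for Zbp1 (-5.12 on the log2 scale), Eif2ak2 (-2.45), Adar (-1.98) and Mlkl (-1.25). The edgeR adjusted p was 0.0476 for Zbp1, 1.15e-06 for Eif2ak2, 2.66e-13 for Adar and 1.45e-09 for Mlkl. In both controls the 3 treated libraries of each of these genes were above the 3 untreated ones. Each clone is a single line, so a difference between clones and controls cannot be told apart from one between these lines.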

How the results depend on the processing

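In EV 5 of 6 genes and in WT 6 of 6 were higher in the edgeR test. The called responses of Zbp1, Tlr3, Eif2ak2, Adar and Mlkl and the lower level of all 6 in treated clones kept their direction and call under RLE factors, DESeq2, limma-voom, the other filters, the block, thinning, a fit of the compared groups and without any library. The response difference of Zbp1 was lost with no filter, a minimum count of 30 and thinning (edgeR adjusted p = 0.0579, 0.0545 and 0.9998). It was kept in the other 5 of 8 settings.

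Of all genes 129 fell in EV and 215 in WT, with 66 and 119 by DESeq2 and 75 to 113 and 120 to 160 without a library.

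In the clones, where no gene was called, the sign of some responses turned. Thinned to the smallest total, they were -0.079 for Eif2ak2 and -0.030 for Ripk1 in 1CF10 and -0.017 for Mlkl in 2CD7. Leaving out a library gave -0.067 to 0.33 for Eif2ak2, -0.044 to 0.22 for Mlkl and -0.059 to 0.59 for Ripk1 in 1CF10, -0.0095 to 0.18 for Eif2ak2 in 2CD7, and -0.25 to 0.067 for the untreated difference of Ripk1. In 2CD7 limma-voom called 1 gene of all, and leaving out a library 0 to 1. For 2CD7 minus 1CF10, 1 gene was called with no filter.

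For the response of EV minus WT, edgeR called 5 of all genes. DESeq2 and limma-voom called 1 each, no filter 76, a minimum count of 30 and thinning 3 each, a fit of the compared groups 30 and leaving out a library 0 to 24, with 0 of the 6 genes each time.

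The counts in untreated comparisons also moved with the setting, and Eif2ak2 lay near the threshold. For clones minus controls, 1 of the 6 was called, 0 in a fit of the compared groups and 1 to 2 when a library was left out. For 1CF10 minus EV 0 were called, but 1 with limma-voom, no filter or the compared groups, and 0 to 1 without a library. For 2CD7 minus EV it was 0 to 1 without a library. For 1CF10 minus WT 0 were called, but 1 with DESeq2, limma-voom, no filter, a minimum of 30 and thinning, and 0 to 2 without a library. That gene was Eif2ak2 in all of these settings but thinning, where it was another of the 6. For 2CD7 minus WT 1 was called, but 2 with no filter and 0 with the compared groups, and 0 to 2 without a library. The gene called was Tlr3 as reported, but Eif2ak2 with DESeq2, limma-voom and thinning (adjusted p = 0.0130, 0.0210 and 0.0392). Of all genes 241 were lower there, 136 with DESeq2, 151 after thinning and 96 to 218 without a library. DESeq2 gave no adjusted p for Zbp1 and Tlr3 there, and fits of the compared groups dropped both from the untreated comparisons. Treated EV minus WT gave 2 of 6, 0 with DESeq2, 1 after thinning and 1 to 2 without a library.

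The replicate number as a block left the count of called genes among the 6 the same in all comparisons but untreated 1CF10 minus WT (1) and untreated 2CD7 minus WT (2), and gave 14 of all genes for the response of EV minus WT. With a block, 0 of the 6 rose in either clone, 5 in EV and 6 in WT. For 13 of 24 libraries, the mean correlation of deviations with libraries of other groups was highest for their own replicate number. Where a library is left out, the remaining ones are assumed to vary like the other groups. The cause of these changes was not tested. Depth limits Zbp1 and Tlr3, which had 0 to 9 UMIs per untreated library.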
